A study of Rattus norvegicus with 6 samples.

Results

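Of the 22783 long non-coding RNAs (lncRNAs) in the lncRNA table, 20148 carried a NONCODE identifier, and 15512 of these had a span that shared at least 1 base with the locus of a gene that had counts in at least 1 library. These 15512 transcripts were the members described here. They overlapped 8476 of the 20645 genes with counts. The study compared the spinal cord of Wistar rats with bone cancer pain (BCP) and of sham-operated rats. Living Walker 256 cells, a rat breast carcinoma line, had been placed in the left tibia of BCP rats, and sham rats had received the same cells after heat killing. Both groups thus had the puncture and a load of tumor cells. The injected side of the lumbar enlargement was taken on day 14, freed of meninges, and its total RNA was depleted of ribosomal RNA and made into strand-specific libraries. There were 3 libraries per group, numbered here as in the labels. The labels do not say whether each library came from 1 animal, so the p-values measure the spread between these libraries.

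A lncRNA that overlaps a gene can lie in an intron, share exons with the mRNA on the same strand, or run antisense to it. Some of these transcripts act on the gene they overlap, as antisense RNAs that alter its chromatin, splicing or mRNA stability do, while others are by-products of the gene's own transcription, such as retained introns or extended ends. In short-read data, reads from shared sequence can be counted for the lncRNA, the gene or both. Strand and exon positions of the transcripts were not analysed here, so sense and antisense members, and intronic and exonic ones, are not separated below. In bulk tissue, a higher level may come from more cells of a type or from more RNA per cell, and these cannot be told apart. The spinal cord holds neurons, oligodendrocytes that make myelin, astrocytes, and microglia, its resident immune cells, which present antigen through MHC class II molecules when activated.

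Among genes with 2 or more up-regulated members, 4 had every overlapping member up-regulated in BCP rats and 1 promoter entry in RefSeq. Their promoters are printed for that reason. Cd74 encodes the invariant chain, the chaperone of MHC class II, and held 3 such members. Axl, a receptor kinase by which phagocytes take up dead cells, held 4. Arpc1b, a subunit of the Arp2/3 complex that branches actin, held 2, and so did Dennd2d, an activator of Rab GTPases. All members of Cd74 and Dennd2d and 1 of Axl had passed the filter on low counts through the BCP libraries alone. The filter itself thus required those to be higher there. Each sequence runs 5′ to 3′ from 250 bases before to 50 bases after the start of the RefSeq gene on the gene's strand. Capitals mark motifs found on either strand.
Cd74, GRCr8 chr18:56526956-56527255, plus strand: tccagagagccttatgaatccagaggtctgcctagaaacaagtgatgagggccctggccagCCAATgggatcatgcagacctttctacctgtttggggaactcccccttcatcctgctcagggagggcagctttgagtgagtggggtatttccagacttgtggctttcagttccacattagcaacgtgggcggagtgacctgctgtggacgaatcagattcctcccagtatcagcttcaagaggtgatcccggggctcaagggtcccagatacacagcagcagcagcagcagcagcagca
Axl, GRCr8 chr1:90423960-90424259, minus strand: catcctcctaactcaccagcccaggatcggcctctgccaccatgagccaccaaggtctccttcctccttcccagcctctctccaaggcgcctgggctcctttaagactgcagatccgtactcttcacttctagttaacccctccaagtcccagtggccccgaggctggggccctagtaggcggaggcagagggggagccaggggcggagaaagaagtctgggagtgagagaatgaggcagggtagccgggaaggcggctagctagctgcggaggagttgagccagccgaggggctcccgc
Arpc1b, GRCr8 chr12:14609439-14609738, minus strand: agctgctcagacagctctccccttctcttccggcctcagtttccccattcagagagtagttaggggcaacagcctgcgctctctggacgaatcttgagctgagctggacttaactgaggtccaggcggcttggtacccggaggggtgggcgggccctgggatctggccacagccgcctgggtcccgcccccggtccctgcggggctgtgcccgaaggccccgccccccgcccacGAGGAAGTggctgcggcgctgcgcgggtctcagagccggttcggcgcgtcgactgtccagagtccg
Dennd2d, GRCr8 chr2:196661215-196661514, plus strand: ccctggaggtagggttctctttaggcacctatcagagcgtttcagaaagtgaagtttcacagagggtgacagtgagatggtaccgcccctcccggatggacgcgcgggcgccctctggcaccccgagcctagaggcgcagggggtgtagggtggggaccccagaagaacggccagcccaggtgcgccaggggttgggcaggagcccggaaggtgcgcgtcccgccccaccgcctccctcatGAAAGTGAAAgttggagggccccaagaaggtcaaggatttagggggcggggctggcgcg
The 4 motifs named here were searched on both strands, and none overlapped another in these promoters. The capitals are CCAAT in Cd74, a PU.1 box (GAGGAAGT) in Arpc1b, and the core of an interferon-stimulated response element (GAAA, any 2 bases, GAAA) in Dennd2d. No match to these or to a gamma-activated site (TTCNNNGAA) was in the window of Axl. Of 27457 RefSeq promoters, 37.7% held CCAAT, 2.44% the PU.1 box, 3.77% the interferon element and 8.68% the gamma-activated site. Only 51 of the 82 genes overlapped by up-regulated members matched a promoter by symbol, so no share is given for that set.

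The members were mostly short transcripts that lay inside their gene. The median length was 643 bases, from 201 to 12402, and the median span on the genome was 1634 bases. The span of 11559 members lay wholly within the gene they shared most bases with, 3530 overlapped it in part and 423 reached around it. In 6150 members the length equalled the span, as in a transcript of 1 exon, and 9362 were spliced. A single gene was overlapped by 14477 members, and 1035 overlapped 2 or more, up to 21. Son, which encodes a splicing cofactor, held the most members, 13, followed by Ank3, the ankyrin of the axon initial segment, with 12. Srsf5, a splicing factor, and Psip1, a chromatin reader, held 10 each. In these 4 genes 32 members were tested and none was called by edgeR or DESeq2, with 6 at an unadjusted p under 0.05 in edgeR (log2FC from -0.755 to 1.04).

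Library totals were 11779485 to 15004290 gene counts and 1946315 to 2531114 lncRNA counts, of which 803547 to 1032509 fell on members. Members took 40.7%, 41.3% and 40.8% of the lncRNA counts in sham replicates 1 to 3 and 41.3%, 41.7% and 41.6% in the BCP replicates. The means were 40.9% ± 0.288 and 41.6% ± 0.242 (SD, n = 3 each), a difference of 0.627 percentage points (exact permutation test, two-sided, p = 0.1, the smallest p that 3 against 3 allow). Cell type markers in the gene table moved with the groups. The summed level of the microglia list was 388 to 514 CPM (counts scaled to library size, per 1e6 counts of the tested rows) in sham and 1470 to 1810 in BCP libraries, with 14 of 19 tested genes up-regulated and Siglech at 0. That of MHC class II genes was 25.7 to 33.9 against 1560 to 1710 CPM, with 10 of 10 up-regulated. Over all genes tested the share up-regulated was 6.35%. Oligodendrocyte markers summed to 41100 to 46600 against 29700 to 32900 CPM, neuron markers to 14200 to 14500 against 12000 to 13200. Red blood cell genes summed to 251 to 268 against 483 to 699 CPM, and 14 of 15 tested T cell genes were up-regulated, although the summed level of that list was 638 to 653 against 613 to 629 CPM. The part of these shifts in the results on the lncRNAs was not tested.

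At their own loci, members were usually fainter than the gene. On the per-length FPKM scale, the median ratio of a member to its gene was 0.161 to 0.164 in the 6 libraries, over 7406 to 7431 pairs, and 6.71% to 7.06% of the pairs had the lncRNA above its gene. The 2 tables were scaled separately, the lncRNA values with denominators 1.12 times the totals of gene counts. The 4 members described next were among the most abundant, and all stood above their gene. NONRATT028170.2, which reaches around Mobp, a myelin protein gene, had an FPKM of 1880, 1690 and 1810 in sham and 1710, 1630 and 1470 in BCP libraries, and Mobp had 407, 408 and 387 against 335, 298 and 300. NONRATT019765.2 in Cst3, which encodes cystatin C, had an FPKM of 710 to 803 in sham and 772 to 805 in BCP libraries. NONRATT018825.2 in Cnbd2 stood farthest from its gene, at an FPKM of 215 to 251 against 0.962 to 1.57 for Cnbd2. NONRATT024628.2 at AABR07065531.5 had an FPKM of 226 to 320. These 4 abundant members did not pass the thresholds between groups (log2FC from -0.296 to 0.0698, edgeR adjusted p from 0.235 to 0.7).

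To ask which members differ between BCP and sham rats, all lncRNA rows were fitted with edgeR, and a row was called at an adjusted p under 0.05 and an absolute log2 fold change (log2FC) over 1. Of 7619 members tested, 92 were up-regulated and 5 down-regulated in BCP rats. Over all 12157 lncRNA rows tested, 1.14% were up-regulated and 0.074% down-regulated, and the members' shares were 1.21% and 0.0656%, near that background, which was 1.22% in either direction. The other 7893 members were too low to test. The median log2FC of the members tested was -0.000561, and 916 had an unadjusted p under 0.05. Of the 7619 members tested, 814 were higher and 637 lower in BCP libraries without overlap between the groups. Over all rows tested, 20.7% had no overlap (11% higher and 9.65% lower in BCP libraries). The groups did not overlap in any of the 97 called members, but these were selected for a difference between the same libraries. Of the called members, 38 had passed the filter through the BCP libraries alone and 2 through the sham libraries alone. The filter itself thus required these members to be higher in that group. The number of up-regulated members was 32 without sham replicate 2, 50 without sham replicate 3, 48 without BCP replicate 2 and 31 without BCP replicate 3.

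**Figure D1:**
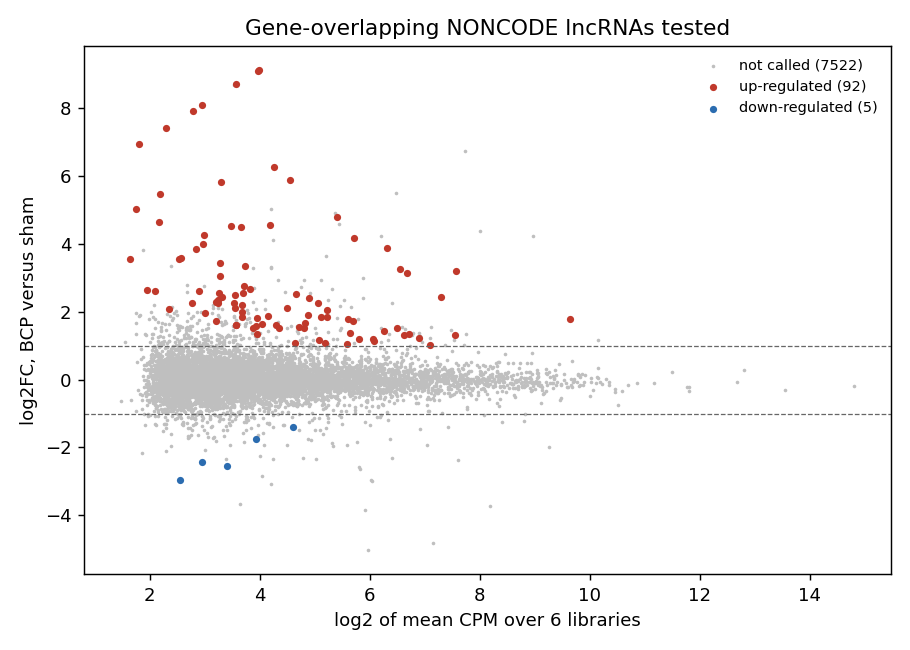
Each point is 1 of the 7619 members tested, with the log2 of its mean CPM over the 6 libraries on the x axis and its log2FC between BCP and sham libraries on the y axis. Red points are the 92 up-regulated and blue points the 5 down-regulated members, and dashed lines mark a log2FC of 1 and -1. The called members are mostly up-regulated.

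The up-regulated members lay on 20 chromosomes and in 82 genes. Their log2FC ran from 1.00 to 9.12 with a median of 2.26, and their mean level in BCP libraries from 5.79 to 1240 CPM with a median of 24.5. Of the 92, 46 were unspliced, and the median length was 923 bases against 749 for all members tested. Of the tested members, 1.09% of those within their gene were up-regulated, 1.57% of those that overlapped it in part, 1.06% of the spliced and 1.4% of the unspliced.

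The invariant chain gene Cd74 (ENSRNOG00000018735, Rnor_6.0 chr18:56071478-56080849), whose promoter is printed above, gave 2 of the 3 members with the smallest adjusted p-values. NONRATT013481.2 (chr18:56076008-56076835) had 1 count in each sham library and 76, 77 and 82 counts in the BCP libraries. Its counts were 86.7 times higher in BCP libraries relative to library size (exact 95% interval of the ratio 29.3 to 423, counting error only), and its log2FC was 6.26 ± 0.293 (SE; edgeR adjusted p = 0.000102). The unspliced NONRATT013483.2 (chr18:56078109-56079084) had 2, 1 and 2 counts in sham and 76, 108 and 102 in BCP libraries, a ratio of 63.3 (interval 26.8 to 196). The third member, NONRATT013482.2, which ends 2 bases past the gene, had no count in sham and 27, 18 and 51 counts in BCP libraries, at least 11.8-fold higher against a floor of 3 counts in each sham library (edgeR adjusted p = 0.0215). The call of this last one was lost without sham replicate 2 or 3 or BCP replicate 1 or 3 (edgeR adjusted p from 0.0504 to 0.127). All 3 members were near absent in sham libraries and present in every BCP library. They had passed the filter on low counts through the BCP libraries alone, which required them to be higher there. Cd74 itself rose from 9.3, 13.3 and 12.5 CPM to 875, 818 and 877 CPM, a log2FC of 6.19 ± 0.111 (SE; edgeR adjusted p = 3.16e-09).

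Axl (ENSRNOG00000020716, chr1:82549420-82580761) held 4 unspliced members within the gene, and all rose in BCP rats. NONRATT002423.2 had 19.2, 11.8 and 9.49 CPM in sham and 39.6, 43.1 and 45.9 CPM in BCP libraries. NONRATT002422.2 stood at 5.61, 5.24 and 5.78 CPM against 18.2, 19.7 and 22.4 CPM, NONRATT002421.2 at 2.8 to 5.78 against 13 to 22.9 CPM, and NONRATT002420.2 at 0.826 to 1.75 against 5.21 to 9.55 CPM. The log2FC of the 4 was 1.67 to 2.6 (edgeR adjusted p from 0.0111 to 0.0369), and that of Axl was 1.84 (edgeR adjusted p = 0.00147). At Arpc1b, NONRATT007747.2 had 6.11 to 10.7 CPM in sham and 20.1 to 24 CPM in BCP libraries, and NONRATT007749.2 had 5.61 to 9.91 against 21.4 to 28.7 CPM, with a log2FC of 1.58 and 1.65 beside 2.12 for the gene. At Dennd2d, NONRATT016752.2 had no count in sham and 17, 12 and 14 counts in BCP libraries, at least 5.33-fold higher, and NONRATT016751.2 had 0, 0 and 1 against 10, 13 and 18 counts. These Dennd2d members and NONRATT002420.2 of Axl had passed the filter through the BCP libraries alone, which required them to be higher there. Icoslg, the ligand of a T cell costimulatory receptor, Sp100, a component of nuclear bodies, and Pou2f2, a transcription factor of lymphoid and myeloid cells, were the other genes with 2 called members. Members of 1 gene share its sequence and its cells, so they are not independent of each other.

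Further members with small p-values lay in 6 genes. Tyrobp encodes DAP12, the signalling adaptor of microglial receptors such as TREM2, and its member NONRATT000579.2 rose from 1.87, 1.75 and 3.3 CPM to 26.6, 24.8 and 21.5 CPM (log2FC 3.35 ± 0.322 SE, edgeR adjusted p = 0.0029). NONRATT007410.2, which shares 24.6% of its span with Lat2, an adaptor of myeloid and B cell receptors, rose from 55.6, 50.6 and 41.7 CPM to 217, 292 and 284 CPM (log2FC 2.42 ± 0.155). In Naip6, an inflammasome sensor gene with close copies among which reads may be split, NONRATT016029.2 rose from 12.1, 8.29 and 7.84 CPM to 46.4, 50.9 and 53 CPM (log2FC 2.41 ± 0.214). The groups were apart in each of these members, which the rule that named them required. The Tyrobp member had also passed the filter on low counts through the BCP libraries alone. In Pou2f2, NONRATT002398.2 rose from 11.2, 12.7 and 13.2 CPM to 47.9, 45.9 and 45.9 CPM (log2FC 1.91 ± 0.165). Trpm2, a calcium channel opened by oxidative stress, held NONRATT017269.2, which rose from 16.8, 14.8 and 16.5 CPM to 51.1, 57.8 and 65.9 CPM (log2FC 1.86 ± 0.167). NONRATT014510.2, with 35% of its span in Adcy7, an adenylyl cyclase of immune cells, rose from 48.1, 65 and 55.3 CPM to 133, 141 and 145 CPM (log2FC 1.32 ± 0.132). The calls of all 6 held without any single library.

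**Figure D2:**
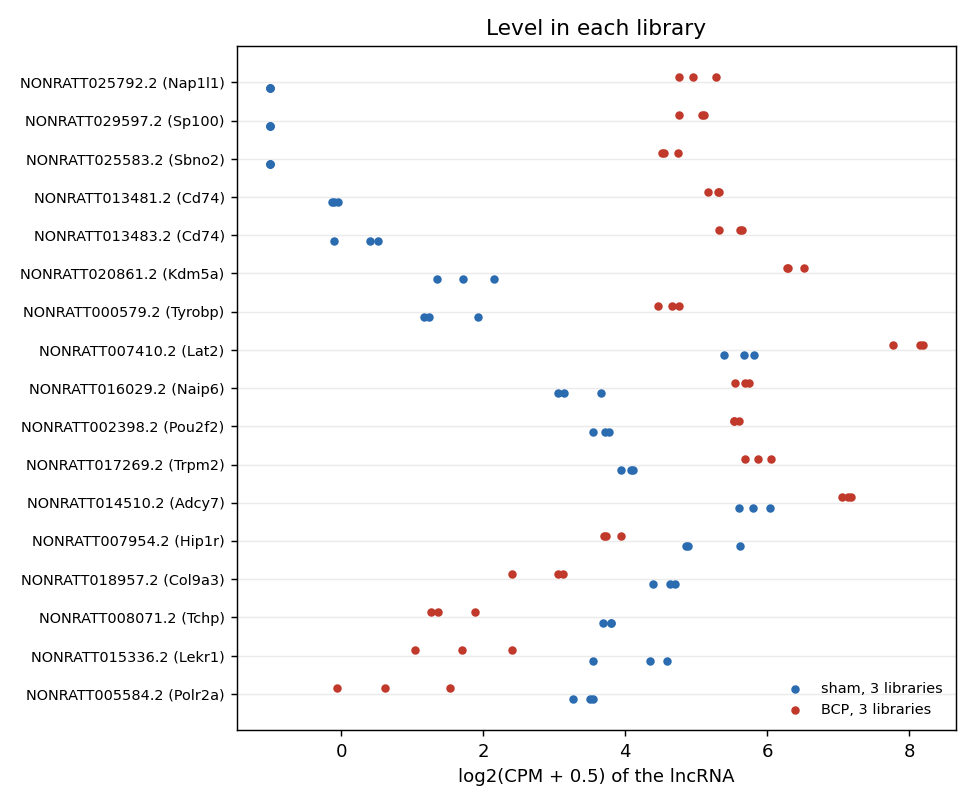
Each row is a member named for its small p-value, with its gene in brackets, and the x axis is log2(CPM + 0.5) of the lncRNA. Blue points are the 3 sham and red points the 3 BCP libraries. Groups lie apart in every row because only called members without overlap between groups were eligible. The sham points of the members in Nap1l1, Sp100 and Sbno2 are at 0 counts.

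Members were also counted by lists of genes, beside a share of 1.14% up-regulated over all lncRNA rows tested. The microglia list held 16 members, of which 9 were tested and 4 were up-regulated, with a median log2FC of 1.18 beside -0.0112 for all lncRNA rows tested. Besides Tyrobp these were NONRATT008764.2 in Ptprc, the leukocyte antigen CD45, which rose from 14.5, 10 and 5.78 CPM to 127, 160 and 159 CPM (log2FC 3.88), NONRATT012908.2 in Ly86, a partner of a Toll-like receptor homolog (log2FC 2.6), and NONRATT022680.2 in Laptm5, a lysosomal membrane protein (log2FC 2.5). All 3 tested members of the MHC class II list were those of Cd74 (median 6.26). These 3, and 3 of the 4 called on the microglia list (Tyrobp, Ly86 and Laptm5), had passed the filter on low counts through the BCP libraries alone, so the filter itself required them to be higher there and their counts and medians support nothing further. Of the class I antigen presentation list, 10 of 19 members were tested and 1 was up-regulated, NONRATT010439.2 at the proteasome activator Psme1, from 30.4, 35.8 and 16.9 CPM to 64.1, 76.6 and 75 CPM (list median 1.41). This call was lost without any single library except sham replicate 3 (edgeR adjusted p from 0.0638 to 0.169). Of the interferon response list, 10 of 15 members were tested and 2 were up-regulated in edgeR and 4 in DESeq2 (median 0.811). These were NONRATT025453.2 in Stat2, a transcription factor of type I interferon signalling, from 44.4, 41.9 and 40.5 CPM to 86.5, 113 and 78.8 CPM, and NONRATT006918.2 in Mx1, an antiviral GTPase, from 11.2, 6.11 and 5.37 CPM to 34.9, 65.6 and 29.1 CPM. Calls were also lost for the Ptprc member without sham replicate 2, for Ly86 without sham replicate 2 or 3 or BCP replicate 3, for Laptm5 without any sham library or BCP replicate 3, for Stat2 without sham replicate 2 or 3 or BCP replicate 2 and for Mx1 without any library except sham replicate 1 (edgeR adjusted p up to 0.166, and for Stat2 without BCP replicate 2 by a log2FC under 1).

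Trpm2 was the only called one of 18 tested members among ion channels and receptors of pain (median -0.0795, 29 members in all). Among the 5 tested of 9 members in proliferation genes, none was called by edgeR, 4 had an unadjusted p under 0.05 and DESeq2 called 2 (median log2FC 1.97). The tested members in genes of astrocytes (13 of 15, median 0.148), neurons (14 of 19, median -0.175) and oligodendrocytes (19 of 27, median -0.318) gave no call in edgeR or DESeq2, and 4, 2 and 9 of them had an unadjusted p under 0.05. The lists of chemokines and receptors (2 tested of 6), T cells (1 of 7), red blood cells (2 of 3) and skeletal muscle (2 of 5) each gave no edgeR call and 1 member with an unadjusted p under 0.05, and DESeq2 called 1 in the first of them only. Endothelial cells (2 of 10), meninges and fibroblasts (1 of 7), and dorsal root ganglion and nerve root (1 of 4) gave no call with either tool and none with an unadjusted p under 0.05. The 2 members in NADPH oxidase genes, 12 in complement genes, 9 in genes of oligodendrocyte precursors, 1 in B and plasma cell genes and 1 in neutrophil genes were all too low to test.

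**Figure D3:**
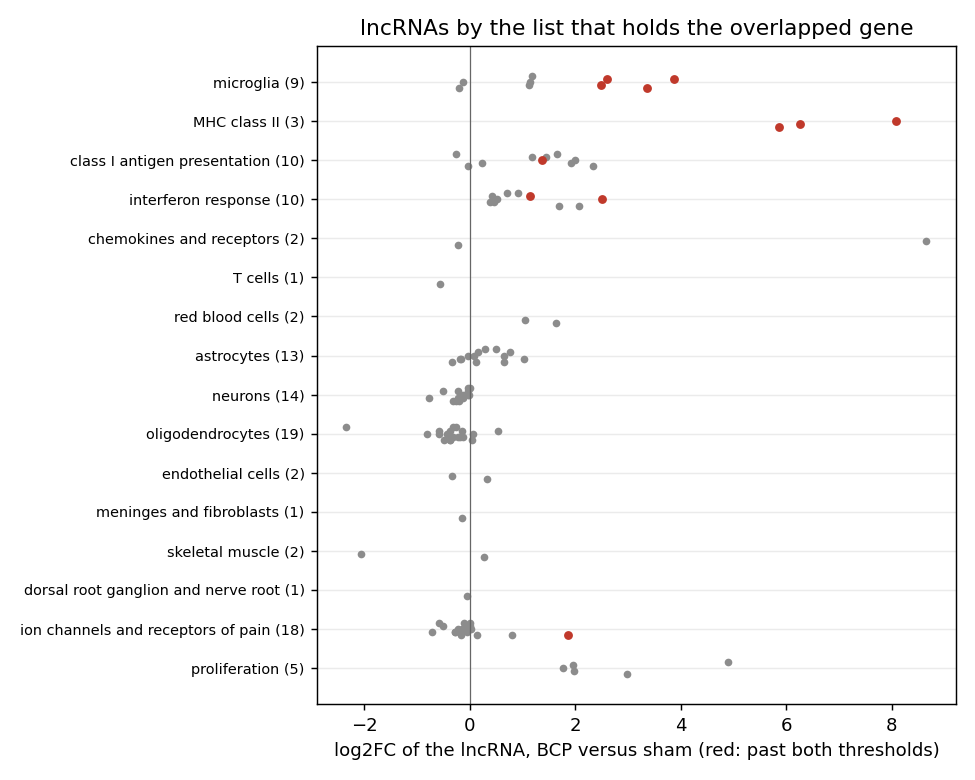
Each row is a list of genes, with the number of tested members in brackets, and each point is the log2FC of 1 lncRNA overlapping a gene of the list. Red points passed both thresholds. Red points appear in the rows of microglia, MHC class II, class I antigen presentation, interferon response, and ion channels and receptors of pain.

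The study names further members. Of these, the members at Ptpn7, Tnfrsf14, Dock8, LOC103691893, LOC100910885, Klrk1 and RT1-T24-1 had passed the filter through the BCP libraries alone. The filter itself thus required them to be higher there. NONRATT015068.2 in Fyb, an adaptor of T cell and myeloid signalling, rose from 21.5, 15.7 and 25.6 CPM to 129, 209 and 211 CPM. In Ptpn7, a phosphatase of blood cells, NONRATT008238.2 rose from 0.467, 2.18 and 0.413 CPM to 19.3, 29.8 and 23.9 CPM. NONRATT023930.2 in Tnfrsf14, a TNF receptor family member, had 0, 1 and 1 counts in sham and 23, 57 and 42 counts in BCP libraries, a ratio of 67.5 (exact 95% interval 18.3 to 564). All 3 of their genes rose as well, with a log2FC of 3.27 for Fyb, 4.31 for Ptpn7 and 5.47 for Tnfrsf14. NONRATT001368.2 at Lsp1, a leukocyte actin-binding protein, had 11.2, 2.62 and 2.89 CPM in sham and 95.9, 99.5 and 102 CPM in BCP libraries (log2FC 4.16, edgeR adjusted p = 0.0422). Its sham replicate 1 stood above the other 2, and the call was lost without any library except that one (edgeR adjusted p from 0.122 to 0.15). NONRATT001625.2 in Dock8, a guanine exchange factor of immune cells, had 2.48 to 3.49 CPM in sham and 12 to 19.1 CPM in BCP libraries (log2FC 2.35), and NONRATT012538.2 at the histone gene Hist1h2bo, one of many similar copies, had 21.1 to 28.8 against 59.4 to 93.1 CPM (log2FC 1.73). NONRATT019710.2, with 11.4% of its span in LOC103691893, had no count in sham and 14, 34 and 39 counts in BCP libraries, at least 10.5-fold higher. NONRATT026079.2 in LOC100910885 rose from 0, 2 and 8 to 50, 92 and 78 counts. Calls were lost for the Dock8 member without sham replicate 2 or 3 or BCP replicate 2 or 3, for that at LOC103691893 without sham replicate 2 or BCP replicate 2 or 3, and for that in LOC100910885 without sham replicate 2 or any BCP library (edgeR adjusted p from 0.0521 to 0.206). NONRATT021744.2 in Klrk1, the NKG2D receptor of cytotoxic cells, had 7, 0 and 0 against 51, 96 and 77 counts but missed the threshold (edgeR adjusted p = 0.0833, and 0.00426 without sham replicate 1, DESeq2 adjusted p = 0.0472), and so did NONRATT017037.2 in the class I gene RT1-T24-1, at 2.62 to 3.3 against 8.86 to 18.8 CPM (edgeR adjusted p = 0.0588).

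All 5 down-regulated members were low in BCP libraries, in genes of unlike roles. NONRATT005584.2 at Polr2a, the largest subunit of RNA polymerase II, fell from 11.2, 10.9 and 9.08 CPM to 1.04, 0.459 and 2.39 CPM (log2FC -2.95 ± 0.482 SE, edgeR adjusted p = 0.0219). NONRATT015336.2 at Lekr1 fell from 11.2, 23.6 and 19.8 CPM to 1.56, 2.75 and 4.78 CPM (log2FC -2.56 ± 0.452). NONRATT008071.2 in Tchp, which encodes a keratin-binding centrosomal protein, fell from 13.5, 13.5 and 12.4 CPM to 2.08, 3.21 and 1.91 CPM (log2FC -2.42 ± 0.327). The genes themselves had a log2FC of 0.111 for Polr2a, 0.0263 for Lekr1 and -0.0697 for Tchp. The members at Polr2a and Tchp had passed the filter on low counts through the sham libraries alone. The filter itself thus required them to be lower in BCP libraries. NONRATT018957.2 in Col9a3, a collagen chain, fell from 20.6, 24.4 and 25.6 CPM to 7.81, 8.26 and 4.78 CPM (log2FC -1.75 ± 0.28). NONRATT007954.2 at Hip1r, an endocytic actin adaptor, fell from 29, 28.4 and 48.7 CPM to 12.5, 12.8 and 14.8 CPM (log2FC -1.4 ± 0.262). The log2FC of Col9a3 was -0.344 and that of Hip1r -0.2. Calls were lost for the Hip1r member without any single library, for Polr2a without any except BCP replicate 3, for Lekr1 and Col9a3 without any except sham replicate 1, and for Tchp without sham replicate 2 or BCP replicate 3 (edgeR adjusted p up to 0.15).

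Several low members that the study names depended on single libraries or on few counts. NONRATT002487.2 at the ryanodine receptor gene Ryr1 had 27, 28 and 10 counts in sham and 0 in each BCP library, at least 6.62-fold lower against a floor of 3 counts per library, and NONRATT020414.2 in Zyx, a focal adhesion protein, had 7, 23 and 30 against 0 counts, at least 5.88-fold lower. Both were under the filter and were not tested. Sham replicate 1 stood apart in 4 others. In Gna13, a G protein subunit, NONRATT005011.2 had 20, 957 and 973 counts in sham and 9, 23 and 29 in BCP libraries, and its neighbour NONRATT005012.2 had 9, 380 and 468 against 1, 11 and 11. Neither passed the threshold in edgeR (adjusted p = 0.338 and 0.344, and 0.0395 for the first without sham replicate 1), and DESeq2 called both (adjusted p = 0.00989 and 0.0227). NONRATT012007.2 in Pcm1 had 2, 104 and 94 counts in sham and 2 in each BCP library, and NONRATT016515.2 at Arfip1 had 1, 232 and 283 against 2 in each. NONRATT016788.2, around the small RNA gene SCARNA2, had 304, 233 and 1 counts in sham, where replicate 3 was the low one, and 2 in each BCP library. SCARNA2 itself had 304, 233 and 260 counts in sham and 182, 251 and 235 in BCP libraries (log2FC -0.151, edgeR adjusted p = 0.424). Its counts in sham replicates 1 and 2 thus equalled those of the lncRNA, and how reads were assigned between them was not tested. The members at Pcm1, Arfip1 and SCARNA2 did not pass the filter and were not tested. Within the sham group the members at Gna13, Pcm1, Arfip1 and SCARNA2 ranged from BCP-like counts to far above them.

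To ask whether a member moved with the gene it overlaps, the values of both were set side by side. They rest on the same 6 libraries. Of the 92 up-regulated members, 88 had a tested gene. The median log2FC of these genes, each counted once, was 1.56 beside -0.0143 for all genes tested. Members were then counted by the log2FC of their gene alone, without a threshold on its adjusted p. That log2FC was over 1 for 63 of the 88 members, between 0.5 and 1 for 11 and within 0.5 of 0 for 14. Of all genes tested, 6.35% were up-regulated and 0.107% down-regulated, 6.45% in either direction. These shares also require an adjusted p under 0.05, so they are stricter than the counts by log2FC alone. Close values were those of Pou2f2 (1.91 for NONRATT002398.2 and 1.95 for the gene), Lat2 (2.42 and 2.45), Trpm2 (1.86 and 1.96) and Fyb (3.13 and 3.27).

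**Figure D4:**
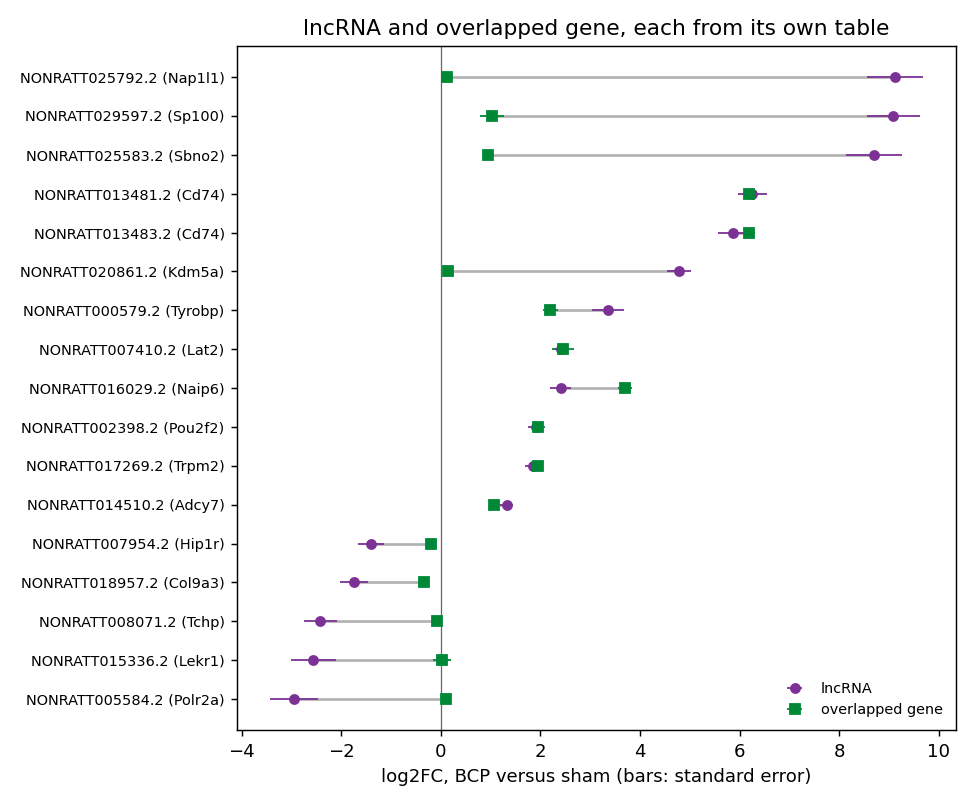
Purple circles give the log2FC of each lncRNA and green squares that of the overlapped gene, each from its own table, with bars of 1 standard error. The values lie close for members at Pou2f2, Lat2, Trpm2 and Cd74 and far apart for those at Nap1l1, Sp100, Sbno2 and Kdm5a.

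The difference itself was tested with limma on log2 CPM of the lncRNA minus log2 CPM of its gene within each library. Of 7463 pairs, 10 were higher in BCP rats relative to the gene and 6 lower, that is, 0.134% and 0.0804% of the pairs, and 545 had an unadjusted p under 0.05. The number higher was 6 without BCP replicate 1 or 2 and 3 without BCP replicate 3, and the number lower was 3 without BCP replicate 1. With a prior count of 0.5 in place of 2 the numbers were 6 and 3. This limma call held without any single library for NONRATT020861.2 and NONRATT004661.2.

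NONRATT020861.2 is an unspliced transcript of 1311 bases near the end of the locus of Kdm5a (ENSRNOG00000010591, chr4:152892388-152972201), which encodes a histone demethylase. It lies at chr4:152968621-152969931, 76233 bases from the first and 2270 from the last position of the gene. Its counts were 6, 9 and 5 in sham and 150, 169 and 191 in BCP libraries, while Kdm5a had 98.3, 96.7 and 100 CPM against 110, 104 and 114 CPM. The lncRNA rose by a log2FC of 4.79 ± 0.239 (SE; edgeR adjusted p = 0.000102), and relative to Kdm5a by 4.31 ± 0.244 (SE; limma adjusted p = 0.00227). This lncRNA had passed the filter on low counts through the BCP libraries alone, which required it to be higher there. The nearest other gene, Il17ra, a receptor of interleukin 17, lies 25934 bases away and had a log2FC of 1.09. NONRATT004661.2 (chr10:70310274-70312073) covers the end of Slfn5, one of a family of similar interferon-responsive genes. It rose from 18.2, 24 and 10.7 CPM to 137, 212 and 163 CPM, while Slfn5 had 75.7, 71 and 55.3 CPM against 93.2, 126 and 111 CPM, a relative rise of 2.54 ± 0.202 on the log2 scale (limma adjusted p = 0.00848). Its own log2FC was 3.27 (edgeR adjusted p = 0.0114), a call lost without sham replicate 1 or BCP replicate 3 (adjusted p = 0.0782 and 0.0574). Slfn13, 14084 bases away, had a log2FC of 1.98.

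In 3 other pairs the lncRNA had no count in any sham library, so the fitted size of the change depends on the prior count. NONRATT025792.2, with 13 and 12 bases between its ends and those of Nap1l1, a histone chaperone gene, had 51, 84 and 64 counts in BCP libraries, at least 24.2-fold higher, while Nap1l1 had 181, 157 and 174 CPM in sham and 189, 195 and 178 CPM in BCP libraries. NONRATT029597.2 at Sp100 had 51, 73 and 71 counts in BCP libraries, at least 23.8-fold higher, and Sp100 had a log2FC of 1.03. A longer member at the same gene, NONRATT029596.2, had 79.4, 74.6 and 59 CPM in sham and 139, 192 and 171 CPM in BCP libraries. NONRATT025583.2 in Sbno2, a transcriptional corepressor of inflammatory signalling, had 43, 50 and 55 counts in BCP libraries, at least 18.1-fold higher, and Sbno2 had a log2FC of 0.955. Each of these 3 had passed the filter on low counts through the BCP libraries alone, so its presence in every BCP library was fixed by the filter. The limma calls held in 4, 3 and 3 of the 6 fits without a library. With a prior count of 0.5 the calls at Sp100 and Sbno2 were lost (limma adjusted p = 0.0711 and 0.163).

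The other 5 pairs that were higher had counts in both groups. NONRATT029232.2 in Hsp90ab1, a cytosolic chaperone gene with many processed copies, had 21, 41 and 49.5 CPM in sham and 264, 339 and 422 CPM in BCP libraries, and the gene had 1580 to 1610 against 1500 to 1570 CPM. NONRATT000839.2 in Idh2, a mitochondrial dehydrogenase gene, rose from 31.8, 35.8 and 33.4 to 76.6, 79.8 and 76.4 CPM with Idh2 at 75.5 to 77.9 against 76.9 to 83.2 CPM. Its nearest other gene, Zfp710, 1344 bases away, had a log2FC of 1.06. NONRATT004734.2 in Vmp1, an autophagy gene, had 11.3 to 17.3 CPM in sham and 52.3 to 74 CPM in BCP libraries with Vmp1 at 121 to 137 against 131 to 134 CPM, and NONRATT026544.2 in Palm, a membrane protein gene, had 12.7 to 17.3 against 40.6 to 61.1 CPM while Palm had a log2FC of -0.31. NONRATT017033.2 in Rn60_20_0032.5 lies 82 bases from the class I gene RT1-S3 (log2FC 1.07, not called, edgeR adjusted p = 0.147) and missed the threshold in the lncRNA fit (edgeR adjusted p = 0.0738, DESeq2 adjusted p = 5.05e-06). In all 5 the relative level was higher in every BCP library than in any sham library, and their limma calls held in 0 to 2 of the 6 fits without a library. With a prior count of 0.5 the calls at Hsp90ab1 and Palm were lost (limma adjusted p = 0.0697 and 0.0517).

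Among the 6 pairs that were lower relative to the gene, 4 had a gene that rose beside a lncRNA that did not pass the threshold. NONRATT010484.2 at Ska3, a kinetochore gene, had 53.7, 54.1 and 33.9 CPM in sham and 39.1, 37.6 and 49.2 CPM in BCP libraries, while Ska3 rose from 1.28 to 1.45 CPM to 4.7 to 4.9 CPM (relative change -1.84 ± 0.205, limma adjusted p = 0.0331). NONRATT025592.2 in Hmha1, a minor histocompatibility antigen gene of blood cells, had a relative change of -2.54 beside a log2FC of 2.19 for the gene. This member also overlaps Lppr3 (log2FC -0.456, edgeR adjusted p = 0.00111), and its own log2FC was -0.363. NONRATT029660.2 at Lrrfip1 had a relative change of -1.21 beside a log2FC of 1.12 for the gene. NONRATT017510.2 in RT1-T24-2 had 64.9, 94.7 and 73.1 CPM in sham and 46.9, 41.7 and 43.9 CPM in BCP libraries beside a gene log2FC of 1.3, at a locus that also overlaps RT1-T24-1. In these 4 pairs the log2FC of the gene was larger in size than that of the lncRNA. At RT1-T24-2 the lncRNA also had a log2FC of -0.811 (edgeR adjusted p = 0.053). The fifth was the Tchp member described above (-2.03), which had passed the filter through the sham libraries alone. The sixth was NONRATT009773.2 within Cxcl13, a chemokine that attracts B cells. It had 0 counts in sham and 16, 48 and 82 counts in BCP libraries, at least 17.6-fold higher. Its edgeR adjusted p was 0.105 (0.0122 without BCP replicate 1), and its DESeq2 adjusted p was 3.05e-07. Cxcl13 itself had 0.203 to 0.381 CPM in sham and 113 to 184 CPM in BCP libraries. The lncRNA had passed the filter on low counts through the BCP libraries alone, which required it to be higher there. Its relative change of -3.9 had an adjusted p of 0.0447 in limma, and with a prior count of 0.5 it was -2.38 with an adjusted p of 0.729. With that prior count the calls at RT1-T24-2 and Tchp were also lost (limma adjusted p = 0.0751 and 0.0545). The calls of these 6 pairs held in 0 to 2 of the 6 limma fits without a library.

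**Figure D5:**
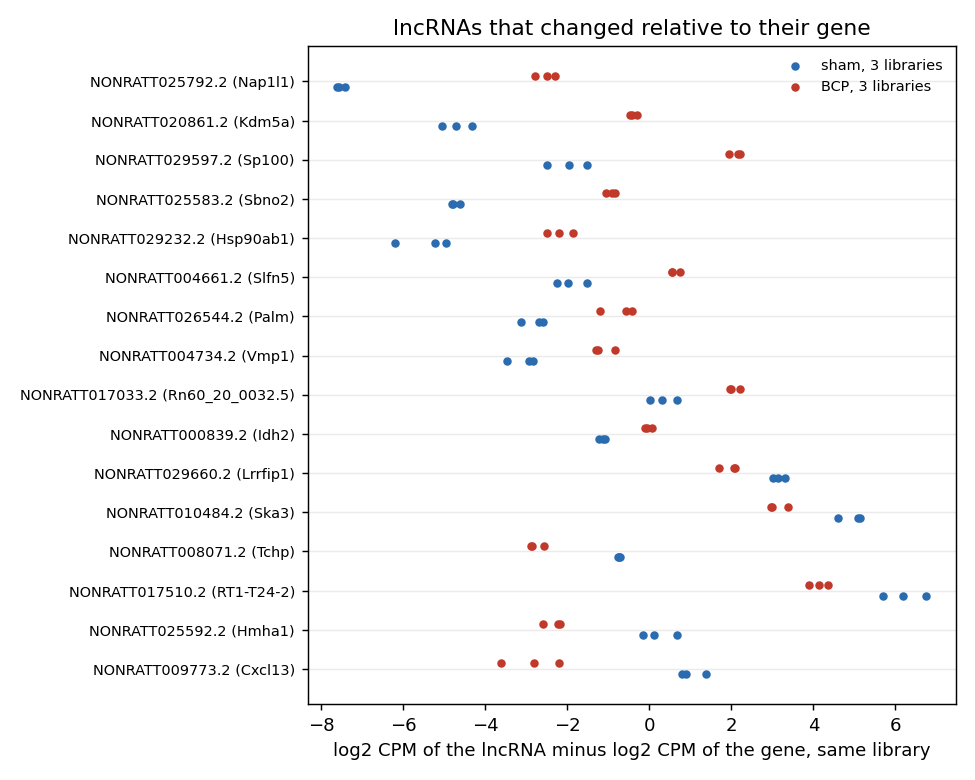
Each row is 1 of the 16 pairs called relative to the gene, and the x axis is log2 CPM of the lncRNA minus log2 CPM of its gene in the same library, with blue points for the 3 sham and red points for the 3 BCP libraries. The groups lie apart in every row, to the right for the 10 higher and to the left for the 6 lower pairs.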

How the data were processed

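RNA-seq of 3 sham and 3 BCP libraries was analysed from a gene table and a lncRNA table. As the study's methods and the submitters' processing notes say, the authors cleaned the reads (Seqtk), aligned them to the Rnor_6.0 genome (HISAT2 2.0.4) and quantified genes and NONCODE lncRNAs (StringTie 1.3.0). They deposited unnormalized counts and, beside them, the authors' FPKM values. The counter and its use of strand are not given in the sources used here. Columns of samples left unmapped numbered 0.

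Each member was paired with the gene sharing most bases with its span. Counts were tested with edgeR 4.0.16 (R 4.3.3; TMM, filter by expression, robust quasi-likelihood fit, Benjamini-Hochberg adjustment over all rows of a table; a read counted in both tables enters both fits). CPM used TMM-scaled totals of the tested rows. Differences between lncRNA and gene were tested with limma 3.58.1 with a prior count of 2. DESeq2 1.42.0 was an alternative. Intervals and floors of 3 counts cover counting error only. Scripts were tested on simulated counts. Promoters came from RefSeq (GRCr8), and CCAAT was added as a motif after the data were seen. Figures used matplotlib 3.10.9.

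Named members were those with the smallest p-values among called ones without overlap (up to 12 per direction), those the study names, up to 6 pairs per direction in the limma test, up to 4 called per list, the 5 with the highest FPKM and the 5 genes with most members. A few of the members and genes so chosen are left out of the text. Other called pairs and the members of genes with several calls were named after their values were seen. The members and lists were chosen with earlier results of these data known.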

Additional observations from a re-analysis of the deposited data

How the results depend on the processing

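The number of up-regulated members (92) stayed within 1.5 times under the other normalizations, filters and DESeq2. It was 59 when the span had to lie within the gene and 31 to 74 with 1 library left out. Down-regulated members (5) numbered 20 with no threshold on the fold, 2 within the gene, 3 with no filter on low counts, 14 in DESeq2 and 6 to 11 with 1 library left out. Pairs higher than their gene (10) numbered 6 with at least 10 counts in every library, 6 with a prior count of 0.5 and 3 to 13 with 1 library left out. Pairs lower (6) numbered 34 with no filter, 3 with a prior count of 0.5 and 3 to 8 with 1 library left out. Taking library sizes of the gene table for both, chosen after the data were seen, changed 1 of the 16 pair calls. With a replicate block, 30 members were up-regulated, 1 was down-regulated, 4 pairs were higher and 0 lower in limma (226 lower at an unadjusted p under 0.05). Deviations of same-numbered libraries correlated at -0.0153, -0.023 and 0.00714, and those of differently numbered ones at -0.0144 to 0.03. No pairing by number was seen, but noisy deviations of so few libraries cannot exclude it. The cause of these shifts was not tested. No result reversed. The share of counts on members differed by 0.53 to 0.792 percentage points with 1 library left out. The biological coefficient of variation, the spread between libraries beyond counting error, was 33.4% for lncRNAs and 7.72% for genes.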

Other observations

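In 14 members 1 library had at most 3 counts while each of the other 5 had at least 100. The low library was sham replicate 1 in 4 of them, sham replicate 2 in 1, sham replicate 3 in 3, BCP replicate 1 in 3, BCP replicate 2 in 2 and BCP replicate 3 in 1, so each library was the low one at least once. NONRATT003560.2 at Myrf, the transcription factor of myelin genes, had 1, 1573 and 1313 counts in sham and 1094, 1302 and 1151 in BCP libraries. NONRATT030593.2 at Ogt had 805, 955 and 1 counts against 705, 743 and 890. NONRATT020054.2 at Stmn3 had 212, 308 and 443 against 0, 301 and 668. None of the 14 was called in edgeR (adjusted p from 0.773 to 0.986) or DESeq2, and 0 had an unadjusted p under 0.05 in edgeR.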
